A study of Mus musculus with 2 samples.

Results

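The genes described here encode proteins of the lysosome, the acidic compartment in which a cell breaks down what it has engulfed. They are 35 genes, chosen by name from the 55536 annotated genes of the tables: 13 soluble hydrolases, the cofactor and growth factor precursors Psap and Grn, 6 lysosomal membrane proteins, and 14 genes of the V-ATPase, the proton pump that acidifies the lumen. The rule uses names and no measured values, but the list was made with earlier results of these data known. All 35 names were found. Together they have 192 annotated transcript models.

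The cells were primary macrophages of mouse strain C57BL/6J, grown from bone marrow. Lipid A, the membrane anchor of bacterial lipopolysaccharide and the part sensed by TLR4, was given at 100 ng/ml for 40 min. RNA came from the nucleoplasmic fraction, was depleted of ribosomal RNA and sequenced as total RNA. There was 1 group with biological replicates 1 and 2, which carry the same donor identifier, so the error shown here may be narrower than that between animals. Library 1 started from 1 µg of RNA and library 2 from 500 ng, and this difference cannot be told apart from the replicate. Sex and age were not collected. No unstimulated cells and no other fraction were analysed here, so every value is a level or a difference between the libraries and none is a response to Lipid A.

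Macrophages depend on lysosomes to digest engulfed cells and microbes. Hydrolases reach the lysosome through sorting receptors and act at low pH, and small sphingolipid activator proteins, cut from the product of Psap, present lipids to them. Heavily glycosylated membrane proteins such as LAMP1 and LAMP2 line the limiting membrane. The V-ATPase has a membrane sector, V0, that carries protons, and a cytosolic sector, V1, that hydrolyses ATP to drive it.

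The libraries held 19630046 and 18434601 expected counts. Mitochondrially encoded mRNAs took 4.62% and 4.42% of them, so the fraction held some RNA from outside the nucleoplasm, and the part of such RNA in the levels below was not tested. The macrophage markers (8 of 8) were detected, with a median of 176 ± 90.4 TPM (SD, n = 2), and their summed level was 3505 TPM in replicate 1 and 2336 in replicate 2. The markers of neutrophils (0 of 6), T cells (0 of 5), B cells (0 of 4), dendritic cells (0 of 4), erythroid cells (0 of 5) and fibroblasts (0 of 5) were not detected, with summed levels from 0.04 to 3.12 TPM in any library. The T cell marker Cd3d, at 0.07 and 0.10 TPM, had 2.38 and 4.28 TPM in the authors' FASTQ-derived tables. Detected means at least 1 TPM, an abundance scaled for transcript length and library total, in both replicates. In bulk RNA, fewer cells of a type and less RNA per cell cannot be told apart.

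The levels below often rest on a choice between transcript models of 1 gene, and for Psap and Lamp2 that choice changes the protein. Psap had its RNA divided almost evenly between models with different first exons, whose starts lie 6834 bases apart on mm10 chromosome 10 (plus strand). The coding stretches of these exons are shown because they are where the models differ most, with the start codon in capitals, from chr10:60277743-60277782 and chr10:60284501-60284531.
Psap-202: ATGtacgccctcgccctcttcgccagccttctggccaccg
Psap-203: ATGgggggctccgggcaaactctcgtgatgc
Lamp2 has alternative last exons on the minus strand of mm10 chromosome X that give the protein different transmembrane segments and cytosolic tails, known as the A, B and C forms. The A form is the receptor of chaperone-mediated autophagy, which feeds single cytosolic proteins into the lysosome. The coding part of each last exon without its stop codon is shown, and its last 12 codons, which encode the tail, are in capitals. The stretches lie at chrX:38405435-38405571 for Lamp2-201 (A), chrX:38421715-38421851 for Lamp2-202 (B) and chrX:38402142-38402281 for Lamp2-203 (C).
Lamp2-201: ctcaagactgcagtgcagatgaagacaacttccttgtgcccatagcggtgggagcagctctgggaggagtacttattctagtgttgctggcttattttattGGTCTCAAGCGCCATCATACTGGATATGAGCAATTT
Lamp2-202: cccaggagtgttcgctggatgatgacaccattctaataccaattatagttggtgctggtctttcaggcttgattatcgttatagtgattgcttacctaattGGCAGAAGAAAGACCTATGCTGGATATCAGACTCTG
Lamp2-203: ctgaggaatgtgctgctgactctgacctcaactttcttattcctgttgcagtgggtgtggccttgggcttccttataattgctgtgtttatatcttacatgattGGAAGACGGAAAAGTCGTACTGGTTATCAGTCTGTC
All 5 stretches were read from the GENCODE M21 transcripts.

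The lysosomal genes were present throughout and most were abundant. All 35 were detected, against 40.0% of the 22028 protein-coding genes, and the mean of 14 reached 100 TPM or more. Their median was 71.9 TPM in replicate 1 and 50.3 in replicate 2, a mean of 61.1 ± 15.3 (SD, n = 2). For comparison, the median over detected protein-coding genes was 7.42 TPM, and 34 of 35 members lay above it, all but Smpd1. On the log2(TPM + 1) scale the members' median stood 2.88 ± 0.05 above that of detected protein-coding genes (2.92 and 2.85), a gap far larger than its spread between libraries. Counts behind a member ran from 127 to 215757 in a library. By TPM, 34 of 35 members were higher in replicate 1, all but Atp6v1f. The median of all genes compared moved the same way, by -0.36 on the log2(TPM + 1) scale from replicate 1 to replicate 2, and 25 of 35 members lay below that median. The added 1 pulls the ratios of low genes toward 0, so abundant members are not compared there on equal terms. By counts scaled for library total, 21 of 35 lay below the median of all genes compared. The SD of a level includes the difference between the libraries, which is described further on.

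Psap stood apart from the rest. It encodes prosaposin, the precursor of the saposins, and had 4179.8 TPM in replicate 1 and 2129 in replicate 2, a mean of 3154 ± 1450.5. It ranked 7 among all protein-coding genes, mitochondrial ones included (ENSMUSG00000004207, chromosome 10, 60277627 to 60302597, plus strand). It alone took 1.10% and 0.786% of all expected counts, of the 2.03% and 1.60% that went to all 35 genes. Grn, the gene of progranulin, a secreted growth factor precursor that binds prosaposin and is cut into granulins in the lysosome, had 630.4 and 383 TPM (ENSMUSG00000034708, chromosome 11, 102430315 to 102437048). Both libraries placed Psap highest and Grn next.

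The hydrolases differed widely in level, and the highest was Lgmn. It encodes legumain, a protease that cuts after asparagine and activates cathepsins, and had 515 TPM in replicate 1 and 249 in replicate 2 (ENSMUSG00000021190, chromosome 12, 102394084 to 102439813). Next came Hexa, the alpha subunit of beta-hexosaminidase, which trims GM2 ganglioside, at 175 and 113 TPM. Lipa, the acid lipase that frees cholesterol from engulfed lipoprotein, had 172 and 98.6 TPM. These neighbours did not differ beyond their spread, with means of 144 ± 44.0 for Hexa and 135 ± 51.6 for Lipa. Man2b1, an alpha-mannosidase for N-glycans, had 161 and 74.8 TPM.

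A middle group of hydrolases lay near the median of the module. Gusb, a beta-glucuronidase that acts on glycosaminoglycans, had 97.8 and 50.3 TPM. Tpp1, which removes tripeptides from protein ends, had 92.0 and 54.1 TPM. Asah1, acid ceramidase, had 71.9 and 50.5 TPM. The ranges of these 3 genes overlapped. Lower still were Naglu (36.3 and 14.7 TPM), an enzyme of heparan sulfate breakdown, and Gaa (35.03 and 16.9 TPM), which degrades glycogen. Gla, alpha-galactosidase A, had 34.2 and 31.3 TPM. Glb1, beta-galactosidase, had 28.5 and 12.2 TPM, and Ppt1, which removes palmitate from proteins, had 21.6 and 17.4 TPM. Smpd1, acid sphingomyelinase, was the lowest of all 35 genes at 3.18 and 2.03 TPM, from 151 and 127 counts (ENSMUSG00000037049, chromosome 7, 105554360 to 105558389). Its credibility interval, the authors' range for counting and read assignment in 1 library, spanned 40.7% and 44.99% of its TPM, against 1.01% and 1.11% for Psap.

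The membrane proteins were led by the LAMP genes and Laptm5. Lamp1 had 311 TPM in replicate 1 and 168 in replicate 2 (ENSMUSG00000031447, chromosome 8, 13159161 to 13175338). Laptm5, a lysosomal membrane protein of blood cells, had 212 and 166 TPM. Lamp2 had 177 and 124 TPM (ENSMUSG00000016534, chromosome X, 38401357 to 38456454). Within each library Lamp2 lay below Lamp1, with log2 ratios of -0.82 and -0.43, a mean of -0.63 ± 0.27. The others were lower. Mcoln1, the calcium-permeable channel TRPML1, had 59.2 and 48.4 TPM, Scarb2, which carries beta-glucocerebrosidase to the lysosome, 44.3 and 21.3, and the sialomucin Cd164 30.75 and 26.5.

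All 14 V-ATPase genes were above 10 TPM on average. In the V0 sector, Atp6v0b, a subunit of the rotor ring, was highest at 263 and 253 TPM (ENSMUSG00000033379, chromosome 4, 117884326 to 117887333). Its TPM changed little, while the member median fell from 71.9 to 50.3. By counts scaled for library total it was higher in replicate 2, with a log2 ratio of 0.35. Atp6v0a1, a form of the large subunit a that lines the proton path, had 213 and 142 TPM. Atp6v0c, the main ring subunit, had 199 and 151 TPM. These 3 genes stood above the other V0 members in both libraries, without overlap. The FASTQ-derived tables did not keep Atp6v0b first in both libraries. There it had 128 and 150 TPM, and Atp6v0a1 144 and 146. Atp6v0d1 and Atp6v0d2, alternative forms of the stalk subunit d, had 33.3 and 21.65 against 17.3 and 13.8 TPM. The d2 form was lower than d1 within each library (log2 ratios -0.95 and -0.65, mean -0.80 ± 0.21), a difference larger than its spread. Atp6v0e, a small membrane subunit, had 17.8 and 12.7 TPM.

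In the V1 sector, Atp6v1e1, a peripheral stalk subunit, was highest at 125 and 80.85 TPM (ENSMUSG00000019210, chromosome 6, 120794305 to 120822793). The catalytic subunit Atp6v1a had 83.2 and 65.6 TPM, and its partner in the ATP-hydrolysing ring, Atp6v1b2, 58.25 and 45.4. In both libraries the order of these genes was E1, A, B2. Atp6v1h, a regulatory subunit, had 60.3 and 34.8 TPM (ENSMUSG00000033793, chromosome 1, 5070018 to 5162529). Atp6v1c1, which joins the stalk to the membrane sector, had 51.7 and 31.1 TPM. The central rotor subunit Atp6v1d had 33.5 and 23.7 TPM, and Atp6v1f, a small rotor subunit, 14.8 and 15.4. Atp6ap1, an accessory protein of pump assembly, had 118 and 88.55 TPM. Subunits of 1 complex thus differed in level by several-fold, and Atp6v0b stood above every V1 subunit in both libraries.

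**Figure D1:**
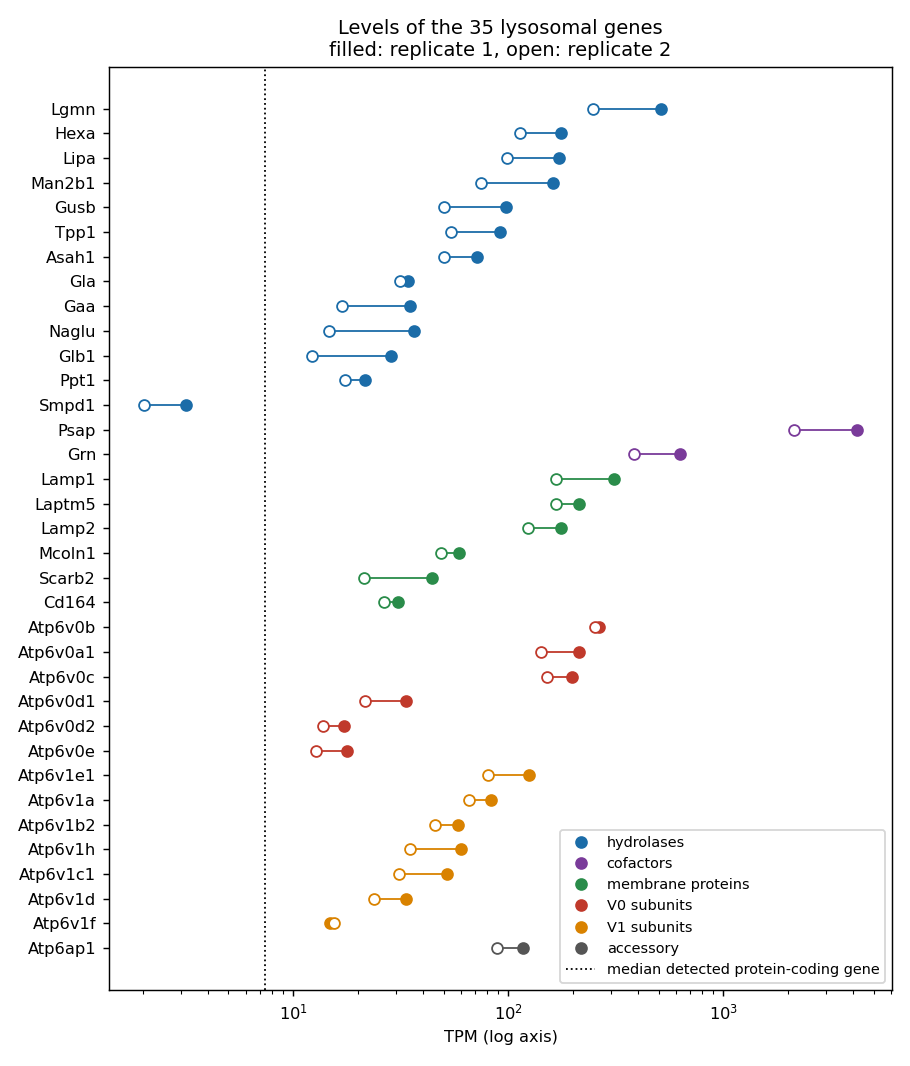
TPM of each of the 35 genes on a log axis, grouped by role, with replicate 1 as filled and replicate 2 as open points; the dotted line is the median detected protein-coding gene at 7.42 TPM. Psap lies far to the right at 4179.8 and 2129 TPM, and Smpd1 is the only gene left of the line.

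By role, the medians were 61.1 ± 15.3 TPM for the hydrolases, 102 ± 22.4 for the membrane proteins, 98.9 ± 24.2 for V0 and 46.5 ± 16.6 for V1 (SD, n = 2). Within a library, the V1 median lay below the V0 median by 0.48 and 0.67 on the log2(TPM + 1) scale, a mean difference of -0.58 ± 0.13, more than its spread between libraries. This does not order the genes of the sectors. The V0 median fell in a gap between Atp6v0c (199 and 151 TPM) and Atp6v0d1 (33.3 and 21.65). Atp6v0d1, Atp6v0d2 and Atp6v0e lay below the V1 median in both libraries. The median of all 14 V-ATPase genes lay below that of the hydrolases, with a difference of -0.30 ± 0.04. This order was not kept by the authors' other transcript tables, made directly from the FASTQ files, which gave 0.05 ± 0.20, with opposite signs in the libraries (-0.09 and 0.19). All 35 genes were lower there, by a median of -0.95 on the log2 scale against -0.69 for detected protein-coding genes. The hydrolases moved by -0.99 and the V-ATPase genes by -0.56. No order of pump and hydrolases is therefore given.

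Several V-ATPase subunits are encoded by more than 1 gene, and their forms are known from different tissues and membranes. For subunit a, the most abundant gene was not the member Atp6v0a1 but Tcirg1, which encodes the a3 form known from lysosomes and from the bone-facing membrane of osteoclasts. Tcirg1 had 478 TPM in replicate 1 and 356 in replicate 2, which is 1.25 ± 0.12 on the log2 scale above Atp6v0a1 (1.17 and 1.33), or 2.37-fold. The FASTQ-derived tables kept this order with a smaller difference of 0.93 ± 0.05, or 1.91-fold. Atp6v0a2, the form known from the Golgi, had 4.33 and 2.92 TPM, and Atp6v0a4, known from kidney, had 0 counts in both libraries, which allows up to 0.115 and 0.0884 TPM at 3 counts. Several other subunit forms were near 0. Atp6v1b1 had 0.19 and 0.05 TPM from 4 counts and 1 count, and Atp6v1c2 0.04 and 0. Atp6v1e2, Atp6v1g3 and Atp6v0e2 had 0 counts, with limits of 0.145, 0.083 and 0.115 TPM in replicate 1 and 0.112, 0.0632 and 0.088 in replicate 2. Atp6v0e2 differed between tables, at 2.35 and 1.86 TPM in the FASTQ-derived ones. Of the G subunits, Atp6v1g1 had 21.8 and 20.4 TPM, and Atp6v1g2, the form known from brain and named here after its values were seen, was detected at 1.82 and 1.88 TPM from 49 and 64 counts. The osteoclast markers Acp5 and Ctsk were detected (2 of 7), at 6.40 and 2.93 TPM for Acp5 and 1.42 and 1.28 for Ctsk, with 0 counts for the calcitonin receptor gene Calcr and a summed level of 8.97 and 5.04 TPM. A further one, Ocstamp, had 0.01 and 0 TPM but 3.34 and 2.38 in the FASTQ-derived tables. Their part in the levels of Tcirg1 and Atp6v0d2 was not tested.

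**Figure D2:**
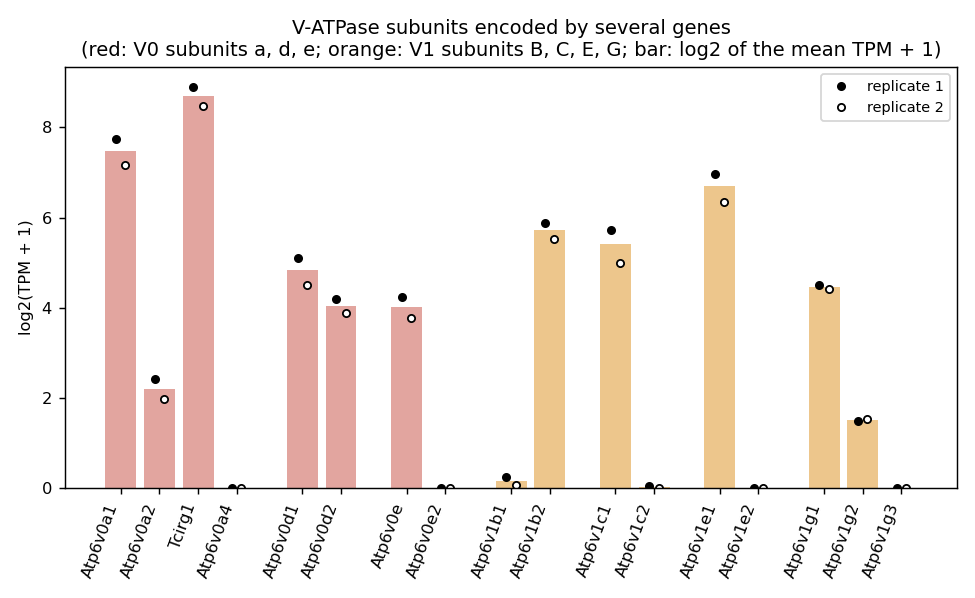
Levels of V-ATPase subunits that are encoded by several genes, as log2(TPM + 1); bars are the mean, filled and open points are replicates 1 and 2, red marks V0 and orange V1. Tcirg1 is the tallest bar among the a subunits, and Atp6v0a4, Atp6v0e2, Atp6v1e2 and Atp6v1g3 are at 0.

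Of 59 further lysosomal and V-ATPase genes, 52 were detected and 7 were below 1 TPM in both libraries, which were 6 of the pump genes above and Lamp3, a LAMP of dendritic cells, at 0 counts (up to 0.0443 and 0.0335 TPM). All 21 other hydrolases were detected, among them the nuclease Pld3 at 209 and 97.2 TPM and the carboxypeptidase Scpep1 at 104 and 61.4. Their median, 23.5 ± 8.05 TPM, lay below that of the 13 member hydrolases. The 9 cofactor and sorting genes were all detected, among them the protective protein gene Ctsa (384 and 205 TPM) and the mannose 6-phosphate receptors M6pr (58.2 and 43.5) and Igf2r (34.1 and 17.7). Of 18 other membrane proteins 17 were detected, led by the tetraspanin Cd63 (146 and 162 TPM), the cholesterol carrier Npc2, a soluble protein listed with them (101 and 84.0), and the chloride-proton exchanger Clcn7 (95.2 and 74.5). Of the 11 other V-ATPase genes 5 were detected, with Tcirg1 first, the accessory receptor Atp6ap2 at 67.9 and 43.1 TPM and Atp6v1g1.

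Nuclear RNA holds transcripts whose introns are not all removed, so the members' RNA was divided among their annotated models. The 192 models comprised 100 that code for protein, 52 that keep an intron (retained-intron models), 29 other processed transcripts and 11 marked for nonsense-mediated decay. Retained-intron models took 7.56% ± 3.02 of the members' TPM (5.43% and 9.69%), or 14.1% without Psap, which has none. Detected protein-coding genes without the mitochondrial ones had 24.9% ± 0.33, and the 59 other lysosomal and V-ATPase genes 28.2% ± 0.09, with 21.6% ± 2.33 for the other hydrolases and 38.7% ± 3.98 for the other pump genes. These shares rest mostly on a few abundant genes, such as Tcirg1 (417 TPM, 44.9%) among the other pump genes. As a median over genes, member hydrolases (0.63%) and other hydrolases (0.66%) hardly differed. That median was 4.86% for all members, 8.03% for the 59 other genes and 11.6% for the detected genes. The model with the highest mean TPM coded for protein in 32 of 35 genes and kept an intron in 3, Atp6v1h, Atp6v1d and Atp6v0b. For Atp6v0b this rests on replicate 2, since in replicate 1 the coding models 206 and 201 (78.0 and 68.25 TPM) lay above the retained-intron model 204 (60.4 TPM). By expected counts coding models led both Atp6v0b (201, 36.3%) and Atp6v1d (201, 70.1%).

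The V1 sector had more of its RNA in such models than the hydrolases and membrane proteins, a contrast noticed in these data. Retained-intron models took 46.5% of V1 TPM in replicate 1 and 45.1% in replicate 2, a mean of 45.8% ± 1.02, but 6.47% ± 1.81 of hydrolase TPM and 7.41% ± 0.40 of membrane protein TPM. The V1 range did not overlap the other ones. V0 had 16.2% ± 7.46. A retained-intron model is annotated for 6 of 7 V1 genes but 7 of 13 hydrolases and 2 of 6 V0 genes. Counting only genes that have one, the shares were 47.9% ± 0.46 for V1, 36.9% ± 13.5 for V0, 8.62% ± 2.66 for hydrolases and 35.1% ± 0.76 for detected protein-coding genes.

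Gene by gene, 22 members have a retained-intron model. In 3 of these 22 it held over 50% of the gene's TPM in both libraries, a share near the 12.6% of detected protein-coding genes with such a model. All 3 are V1 genes, which did not hold in the FASTQ-derived tables, where the hydrolase Tpp1 also passed 50%. Atp6v1h had 66.8% and 73.1%, Atp6v1d 65.4% and 72.0%, and Atp6v1e1 56.7% and 61.2%. The first of these regulates the pump and the others form its central and peripheral stalks. Over 20% in both were 9 members (background 53.4%), which adds Atp6v1c1 (42.7% and 34.9%), Atp6v1b2 (40.7% and 35.8%), Atp6v1a (23.7% and 22.5%), Atp6v0b (28.9% and 49.4%), Tpp1 (43.4% and 36.2%) and Mcoln1 (46.7% and 38.6%). Under 10% in both were 8 members (background 14.8%): Lipa, Gusb, Lgmn, Smpd1, Lamp1, Lamp2, Scarb2 and Cd164. The range within the module thus ran from nearly none to most of a gene's RNA.

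The share depends on how models are counted. By expected counts, which do not divide by length, Atp6v1h had 82.8% and 86.8% and Atp6v1e1 71.0% and 74.6%, but Atp6v1d 28.2% and 29.6% and Atp6v1b2 14.5% in each. The retained-intron models of Atp6v1d are short, at 775 and 634 bases against 3667 for its coding model, and TPM gives short models more weight. In the FASTQ-derived tables Atp6v1e1 had 45.2% and 47.3%, under 50%, while 3 other genes passed 50% in both libraries there: the hydrolase Tpp1 (53.9% and 52.3%), Atp6v1c1 (55.4% and 56.6%) and Atp6v1b2 (51.7% and 52.9%). The V1 share as a whole was 42.1% by counts and 42.4% in the FASTQ-derived tables. Some shares differed between the libraries by more than the others: Asah1 had 10.1% and 39.8%, and Grn 4.44% and 25.0% (by counts 1.10% and 4.37%).

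**Figure D3:**
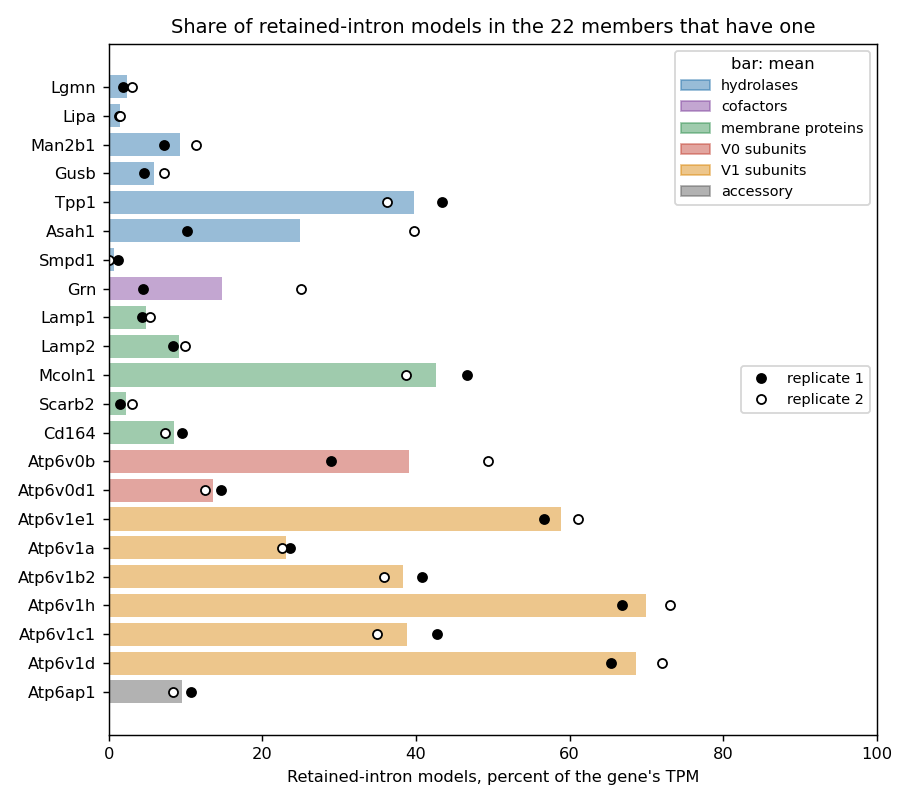
Percent of each gene's TPM in retained-intron models for the 22 members that have one; bars are means coloured by role, filled and open points are replicates 1 and 2. Atp6v1h, Atp6v1d and Atp6v1e1 lie above 50% in both libraries, and 8 members lie below 10%.

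Among models that code for protein, the Psap forms with the first exons printed above were nearly equal. Psap-202 held 46.9% ± 2.50 and Psap-203 49.6% ± 0.98 of the gene's TPM, and the FASTQ-derived tables gave 46.4% and 44.5%, so their order was not stable. For Lamp2, the B form Lamp2-202 held 47.6% ± 0.74, the A form Lamp2-201 25.6% ± 0.78, and the C form Lamp2-203, named here after its values were seen, 0.97% and 0.27%. The order B, A, C held in both libraries and in both kinds of table. Lgmn-202 and Lgmn-201 changed places, with 46.0% and 70.7% against 52.2% and 26.2%, so neither can be called the main form. Gaa-201 and Gaa-203, both coding, held 52.5% ± 5.57 and 35.02% ± 6.32, and 34.3% and 28.1% in the FASTQ-derived tables. Gusb had 27.5% ± 1.13 in Gusb-206, a model marked for nonsense-mediated decay, beside 59.4% ± 1.94 in the coding Gusb-201.

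In the pump, coding models often shared their gene with others. Atp6v0a1-202, coding, held 42.6% ± 3.97 and the short processed Atp6v0a1-208 24.4% ± 5.70, against 18.4% and 16.1% in the FASTQ-derived tables. Atp6v0c-201 held 68.7% ± 5.93 beside the processed Atp6v0c-205 at 28.7% ± 5.72, but the FASTQ-derived tables gave 34.4% and 51.6%. For Atp6v0e the coding models 201 and 202 held 63.7% ± 3.71 and 31.6% ± 2.42, and 25.7% and 57.6% in the FASTQ-derived tables. The order within the Atp6v0c and Atp6v0e pairs thus turned between tables. Atp6v1a-202 held 65.2% ± 1.83, and 30.9% in the FASTQ-derived tables. In Atp6v1e1 the retained-intron model 203 and the coding model 201 held 34.4% ± 4.05 and 34.1% ± 0.09, and the shorter retained-intron model 202 held 24.5% ± 0.87.

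Promoters of lysosomal genes are known for an element read by TFEB and related factors, whose core is the E-box CACGTG. Promoter windows from 250 bases before to 50 after a start, from RefSeq on GRCm38.p6, were present for 30 of the 35 genes. The letters CACGTG, which read the same on both strands, were found in 12 of 30, against 12.7% of 7090 detected protein-coding genes and 8.09% of all 27025 genes of the table. The longer CACGTGAC or its reverse GTCACGTG, which contain that core, were found in 9 of 30, against 5.56% and 2.55%. Of 44 other lysosomal and V-ATPase genes with a window, 9 held the core and 9 the longer form, so neither is particular to the members. Another form, TCACGTGA, was found in 6 of 30 members and 6 of those 44 genes, against 2.68% and 1.12%. The matches to CACGTGAC or its reverse are shown with 11 bases on each side, on the strand of the gene, with the matched letters in capitals. No binding was measured, and a match is a description of the sequence.
Glb1: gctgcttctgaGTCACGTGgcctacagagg
Naglu: ccaaccttcagGTCACGTGgcccgaggtcg
Lgmn: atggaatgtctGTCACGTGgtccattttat
Gla: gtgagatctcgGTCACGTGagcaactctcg
Lamp1: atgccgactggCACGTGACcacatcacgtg
Mcoln1, upstream match: gggtcgcgcttGTCACGTGttcagttcagg
Mcoln1, downstream match: ggcgccccgctCACGTGACcgcggcgcatg
Cd164: gccgggctgctCACGTGACcggcgcgcgct
Atp6v0b: tgtgcgcggggGTCACGTGgggtcggcgca
Atp6v0d1: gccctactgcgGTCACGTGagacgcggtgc
The printed stretches, each a match with its flanking bases, lie at chr9:114401017-114401046 (Glb1), chr11:101070008-101070037 (Naglu), chr12:102439125-102439154 (Lgmn, minus strand), chrX:134601183-134601212 (Gla, minus strand), chr8:13159122-13159151 (Lamp1), chr8:3500435-3500464 and chr8:3500463-3500492 (Mcoln1), chr10:41519402-41519431 (Cd164), chr4:117887349-117887378 (Atp6v0b, minus strand) and chr8:105566051-105566080 (Atp6v0d1, minus strand). The printed matches were in hydrolase, membrane protein and V0 genes, but the V1 genes Atp6v1b2, Atp6v1c1 and Atp6v1h had no window. This spread over roles depends on the form searched. The printed form was in 4 of 12 hydrolases and 2 of 10 V-ATPase genes, and TCACGTGA in 1 of 12 and 3 of 10. Genes with a printed match were not uniformly high, from Lgmn at 382 ± 188 TPM to Glb1 at 20.4 ± 11.6.

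The libraries were last compared with each other, on a scale that removes differences in total (the log2 ratio of replicate 2 to replicate 1 after TMM scaling of expected counts). The module as a whole was level, with a median of -0.02 and 21 of 35 genes lower in replicate 2, against 50.5% of the 14527 genes compared. No member passed 2-fold, against 4.98% of those genes but only 71 of 8800 detected protein-coding genes, so the members did not stand out among detected genes. The roles differed, a contrast noticed in these data. The hydrolases had a median of -0.30 with 11 of 13 lower in replicate 2, and the V-ATPase genes 0.11 with 5 of 14 lower. Naglu (1822 and 973 counts) had -0.81, Glb1 -0.74, and Lgmn and Man2b1 -0.60 each. Gla, at 0.36, and Ppt1, at 0.19, went the other way. Psap and Grn had -0.48 each. Among membrane proteins, Scarb2 had -0.56 and Lamp1 -0.41, while Cd164 and Mcoln1 had 0.31 each. In the pump, the values ran from -0.14 for Atp6v1h to 0.44 for Atp6v1f, whose count was low (164 and 209).

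The hydrolase median minus the pump median was -0.40 with TMM, -0.33 with FASTQ-derived counts and -0.36 with TPM + 1. A scaling factor shifts all genes of a library alike and so nearly cancels in this difference. All of these values also come from the same libraries, so their likeness is no separate evidence for the split. On the log2(TPM + 1) scale the median of all genes compared moved by -0.36 between the libraries. On that scale the V-ATPase median was -0.43, and 34 of 35 members lay below 0. The 21 other hydrolases had a median of -0.33 with 17 lower, and the macrophage markers -0.46 with 7 of 8 lower. The mitochondrial mRNAs had -0.04. RNA input and any other difference between the libraries move with these values and their part was not tested. With 1 library each, no test of the difference exists.

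**Figure D4:**
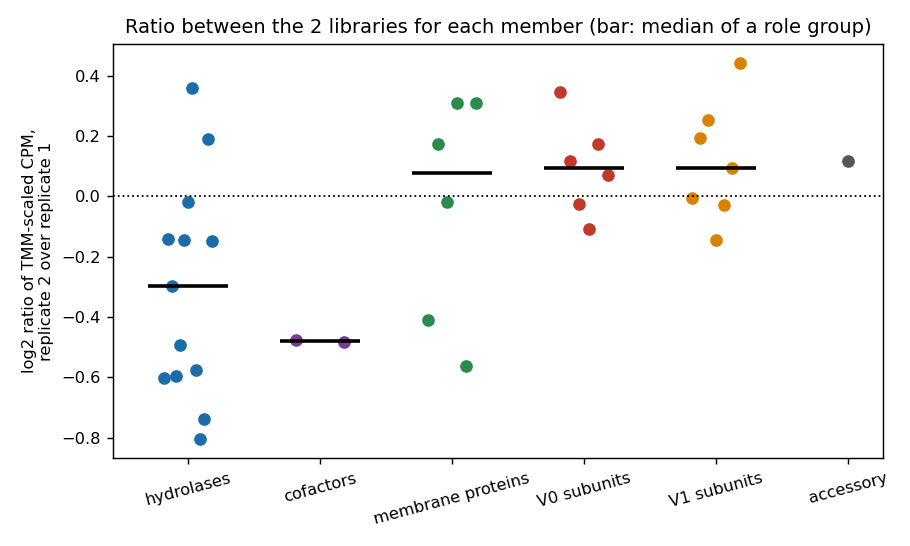
The log2 ratio of TMM-scaled CPM, replicate 2 over replicate 1, for each member (points) by role, with the median of a role as a bar and no change as the dotted line. Most hydrolases lie below 0 (median -0.30) and most V-ATPase genes above it (median 0.11).

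Overlap with neighbouring genes limits a few of these values. Exon bases of 8 members are shared with another gene, on the other strand in 7 (Hexa, Ppt1, Grn, Lamp1, Atp6v0b, Atp6v1e1 and Atp6v1h) and on the same strand for Glb1, whose exon overlaps Tmppe. Whether the authors counted by strand is not given in the sources used here, so reads from these overlaps cannot be assigned with certainty. Of the neighbours, Cap1, which overlaps Ppt1, had the highest level listed, at 39.3 and 29.0 TPM.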

How the data were processed

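Total RNA of the nucleoplasmic fraction was measured in 2 libraries of 1 group. The authors deposited gene and transcript tables made from an alignment and further transcript tables made from FASTQ files, on mm10 with GENCODE M21 per the labels. Aligner, quantifiers and strandedness were not given in the sources used here. The alignment-based tables hold expected counts, TPM and FPKM and the FASTQ-derived ones estimated counts and TPM, per the file headers. The authors' bounds of the credibility interval of the TPM were used as a signal that is never negative. These bounds are centred on a posterior mean and can lie below the TPM.

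Feature rows outside the annotation (0.672% and 0.196% of counts, mostly phiX) were left out. Genes were matched by name, and detected at 1 TPM in both replicates. Retained-intron shares came from the model type in the transcript names. Expected counts, rounded to whole numbers, entered edgeR 4.0.16 (R 4.3.3) for the log2 ratio of TMM-scaled CPM (prior count 2, mean expected count of at least 10), and that step was tested on simulated data. DESeq2 1.42.0 size factors, TPM + 1, FASTQ-derived values, posterior mean TPM, other thresholds and leaving out each replicate were alternatives. There was 1 group, so no contrast was tested and no p-value is given. Counting error only is covered by the credibility intervals and by limits at 3 counts.

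All 35 members are named. Of other lists the 3 highest genes and every gene below 1 TPM in both replicates were to be named, and of a gene's models the highest and any with at least 20% of TPM in both replicates (51 models). The single main models of 20 members, all coding, are not described, and 1 gene that the rule names is not reported here. The members and lists were chosen with earlier results of these data known.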

Additional observations from a re-analysis of the deposited data

How the results depend on the processing

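Of 84 alternatives to 18 results, 61 gave a value within the tolerance, 21 moved it and 2 reversed it. For levels, shares and differences of levels the tolerance was the SD of the 2 replicates. A single replicate always lies within that SD of the mean, so leaving out a replicate could not move these results. A filter that every member passed could not move them either. Such settings are among the 61, which is therefore no measure of stability. The alternatives for the retained-intron shares of V1 and hydrolases and for the ratios by role were chosen after seeing the data. FASTQ-derived TPM reversed the V-ATPase minus hydrolase difference, to 0.048, and gave lower medians: 33.9 for all members, 32.3 for hydrolases, 823 for the cofactors, 49.9 for membrane proteins and 61.6 for V0. It moved Atp6v0d2 over Atp6v0d1 to -1.26, the coding share of member TPM from 89.1% to 83.1%, the retained-intron share of V1 to 42.4% and of hydrolases to 10.04%, and the V-ATPase ratio between libraries to 0.045. FPKM gave a member median of 78.5. By expected counts the retained-intron share of members was 4.50%, their coding share 92.6% and the V1 share 42.1%. Without Psap the first was 14.1% and the second 79.6%. As a median over genes, the retained-intron share was 39.3% for V1 and 0.63% for hydrolases. A ratio of TPM + 1 gave -0.59 for members with 34 lower, -0.79 for hydrolases and, reversed, -0.43 for the V-ATPase. The cause of these shifts was not tested.

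Leaving out each replicate in turn gave values from 50.3 to 71.9 for the member and hydrolase medians, 1256 to 2405 for cofactors, 86.2 to 118 for membrane proteins, 81.7 to 116 for V0 and 34.8 to 58.25 for V1. No paired analysis was possible because there is 1 group. Depth limits Smpd1 and Atp6v1f most, from at most 209 counts.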
